A study of Mus musculus with 8 samples.

Results

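The nuclear genes of the mitochondrial respiratory chain were examined in regulatory T (Treg) cells of the mouse thymus and spleen. The members are the genes whose only listed symbol begins with Ndufa, Ndufb, Ndufc, Ndufs, Ndufv, Sdh, Uqcr, Atp5, or Cox4 to Cox8. These were 93 of the 22180 genes measured, and each was read through the probe set with the highest mean over the 8 arrays. By symbol, 34 belong to complex I, 8 are assembly factors of complex I (Ndufaf), 4 belong to complex II, 4 are assembly factors of complex II (Sdhaf), 8 belong to complex III, 17 to complex IV and 18 to complex V. Of the 93, 91 are coding genes and 2 are pseudogenes, Atp5c1-ps and Uqcrh-ps1.

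The cells came from C57Bl/6J mice that lack the miR-181a/b-1 cluster (miR181-/-, KO) or carry 1 intact copy of it (miR181+/-, HET), so the controls are not wild type. All mice carried a GFP reporter in the Foxp3 locus, and cells positive for Foxp3(GFP), CD4 and CD25 were collected by sorting, with no treatment named. The labels give no age. The 4 groups were thymus KO, thymus HET, spleen KO and spleen HET, with 2 arrays each. Each array held a pool of mice, of sizes that the labels and the study's figure legend give differently. By the labels, both KO pools had 2 females and 1 male, HET pool 1 had 3 females and 1 male, and HET pool 2 had 4 females and 1 male, and each pool gave 1 thymus and 1 spleen array. Pooling leaves no value for a single animal, and p-values measure only the spread between these pools and their handling.

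Complex I and complex II pass electrons from NADH and from succinate to ubiquinone, complex III passes them on to cytochrome c, and complex IV passes them to oxygen. The proton gradient built on the way drives ATP synthase, which is complex V. Treg cells are known for a strong use of oxidative metabolism, and loss of complex III in mouse Treg cells is known to impair suppression. Most subunits are encoded in the nucleus, and a smaller set is encoded by the mitochondrial genome.

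Values are deposited log2 intensities, in which a difference of 1 is a factor of 2, and a probe set's level is read against background, not as an amount relative to other genes. A level counts as background at or below 4.63, the 95th percentile of the means of 1105 olfactory receptor genes, taken as a set without expression in lymphocytes. All 8 Treg markers on the list, Foxp3, Il2ra and Ctla4 among them, were above this level in the 4 groups. The probe sets of the deleted precursors, Mir181a-1 and Mir181b-1, averaged 2.11 to 2.50 and 2.28 to 3.01 across the groups, under background in KO and in HET alike, so they do not check the genotype. Xist, which is active in female cells, averaged 9.10 in thymus KO against 4.15 in thymus HET, and 8.99 in spleen KO against 3.74 in spleen HET. It was thus under background in HET arrays whose pools are labelled as mostly female, so the HET libraries go against their labels in this respect. The Y-linked gene Eif2s3y averaged 7.10 in thymus KO against 7.57 in thymus HET, and 7.51 in spleen KO against 8.06 in spleen HET. Kdm5d and Uty, also Y-linked and above background in every group, had higher means in HET in both tissues as well. The cause of these values was not tested, and it touches every comparison of KO with HET below.

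Promoters were printed for members on which the comparisons below turn. RefSeq (GRCm38.p6) gave a promoter, from 250 bases before to 50 after the gene start, for 76 of the 93 members. Short motifs were searched on both strands: GCATGCGC, the core of sites of the respiratory factor NRF1; CCGGAAG, a core of ETS factors such as GABP; AAGATGGCG, the core of YY1 sites; and TGACGTCA, the cAMP response element. Of the 76 promoters, 12 (15.8%) held the NRF1 core, against 3.05% of 27025 genes with a promoter. The ETS core was in 22 (28.9%), against 9.93% of all genes, and the YY1 core was in 7 (9.21%), against 1.64%. The cAMP response element was in 3 (3.95%), against 2.03%. Any of the 4 was in 36 (47.4%), against 15.1% of all genes. The 27025 genes were taken without a filter on gene type or expression, while most members are expressed coding genes. Whether the higher shares are particular to the members was not tested. The ETS core ends in the letters AAG with which the YY1 core begins, so matches of these can overlap. A match describes letters only.

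The promoters below carry an example of each of the first 3 motifs, in capitals, and 1 promoter without any. Ndufa9 (chr6:126849095-126849394, minus strand) holds the YY1 core and Atp5h (chr11:115419870-115420169, minus strand) holds the ETS core on the opposite strand. Ndufa8 (chr2:36049289-36049588, minus strand) holds the NRF1 core. Cox6a1 (chr5:115348909-115349208, minus strand) holds the NRF1 core in both directions, as overlapping matches, and the ETS core on the opposite strand. Cox7a1 (chr7:30183921-30184220, plus strand), the heart and muscle isoform, holds none of the 4.
Ndufa9: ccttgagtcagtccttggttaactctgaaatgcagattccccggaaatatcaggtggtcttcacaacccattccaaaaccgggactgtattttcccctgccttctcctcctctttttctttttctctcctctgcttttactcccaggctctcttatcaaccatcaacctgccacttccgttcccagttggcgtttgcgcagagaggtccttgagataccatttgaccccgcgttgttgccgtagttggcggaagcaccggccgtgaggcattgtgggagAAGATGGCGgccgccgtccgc
Atp5h: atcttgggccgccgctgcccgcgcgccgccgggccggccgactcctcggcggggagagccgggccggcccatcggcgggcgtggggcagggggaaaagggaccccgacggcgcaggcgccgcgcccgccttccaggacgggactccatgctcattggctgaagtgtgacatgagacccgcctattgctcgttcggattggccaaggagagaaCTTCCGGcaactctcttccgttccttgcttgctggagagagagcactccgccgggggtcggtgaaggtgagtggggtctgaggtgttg
Ndufa8: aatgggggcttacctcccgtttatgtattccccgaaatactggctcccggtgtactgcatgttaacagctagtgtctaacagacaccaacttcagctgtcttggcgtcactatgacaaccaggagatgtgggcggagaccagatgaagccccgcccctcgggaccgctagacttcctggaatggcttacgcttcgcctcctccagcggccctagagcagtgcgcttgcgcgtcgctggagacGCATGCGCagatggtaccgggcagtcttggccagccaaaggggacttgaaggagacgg
Cox6a1: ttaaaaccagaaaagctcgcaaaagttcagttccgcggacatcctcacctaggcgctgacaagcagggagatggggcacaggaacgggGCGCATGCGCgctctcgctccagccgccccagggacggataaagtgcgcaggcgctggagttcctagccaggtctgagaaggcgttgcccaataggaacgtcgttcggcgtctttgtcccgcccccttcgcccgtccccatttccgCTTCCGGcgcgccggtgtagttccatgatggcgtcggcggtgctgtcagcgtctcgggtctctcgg
Cox7a1: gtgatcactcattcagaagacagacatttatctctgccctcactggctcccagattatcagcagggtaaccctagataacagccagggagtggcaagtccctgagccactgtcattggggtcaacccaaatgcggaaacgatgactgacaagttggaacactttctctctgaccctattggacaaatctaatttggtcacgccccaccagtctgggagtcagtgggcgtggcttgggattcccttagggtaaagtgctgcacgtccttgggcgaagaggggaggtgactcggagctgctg

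The first question was which members the cells expressed. Of the 93 members, 81 were above background in all 4 groups and 79 on all 8 arrays. All 17 coding members of complex V, all 7 of complex III and all 4 of complex II were above it in every group. Of complex I, 32 of 34 were above it, and of complex IV 11 of 17. The members at background were mostly isoforms known from other tissues.

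Complex IV makes several of its subunits in alternative forms. The testis isoforms Cox6b2, Cox7b2 and Cox8c lay under background in every group, with means over the 8 arrays of 4.15, 2.22 and 2.89, and so did Cox8b of heart and muscle at 3.43. Ndufa4l2, a paralogue of Ndufa4 known to be induced in hypoxia, was under it as well at 3.73. The lung isoform Cox4i2 read 4.85 and 5.13 in thymus KO, 5.05 and 4.77 in thymus HET, 4.57 and 5.09 in spleen KO and 4.67 and 4.89 in spleen HET. The muscle isoforms Cox6a2 and Cox7a1, at means of 4.67 and 4.74, also lay around the background level. The common forms Cox4i1, Cox6a1, Cox6b1, Cox7a2, Cox7b and Cox8a were above it on all 8 arrays, at means of 8.62, 10.76, 7.96, 7.69, 8.51 and 9.08. For Cox7b, an X-linked gene, the probe set read has only 1 of 17 neighbours by number on X, and the probe set placed on X averaged 4.43, under background.

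**Figure D1:**
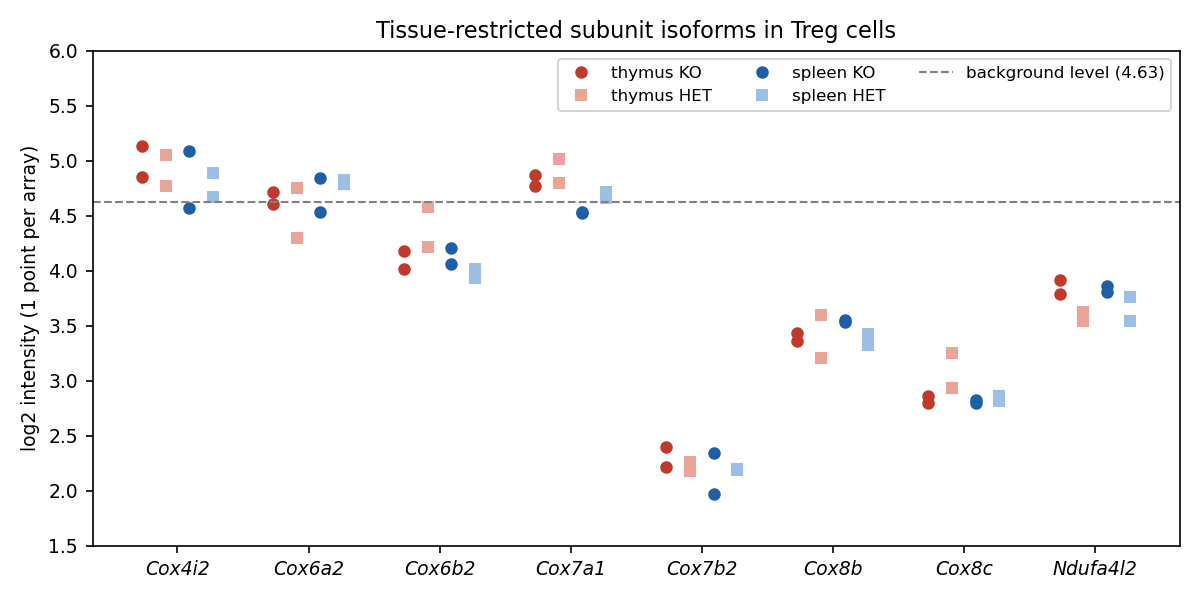
Log2 intensity of the 8 isoforms known from muscle, heart, testis, lung or hypoxia, with 1 point per array, by group (thymus KO, thymus HET, spleen KO, spleen HET); the dashed line is the background level of 4.63. Cox6b2, Cox7b2, Cox8b, Cox8c and Ndufa4l2 lie under the line on all 8 arrays, and Cox4i2, Cox6a2 and Cox7a1 lie around it.

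Expressed members of each complex are given by their means over the 8 arrays. In complex I, Ndufb9, an accessory subunit of the membrane arm, averaged 10.10 ± 0.17 (SD over 8 arrays, as for the values that follow). Of its catalytic core, Ndufs1, which carries iron-sulphur clusters, averaged 7.12 ± 0.15, and Ndufv1, which binds NADH, averaged 7.69 ± 0.09. Ndufab1, the mitochondrial acyl carrier protein, averaged 5.76 ± 0.08. Ndufa4, named for complex I but since assigned to complex IV, averaged 8.60 ± 0.12. Ndufs5, an accessory subunit of the intermembrane space side, was under background at 3.94 by its own probe set. A further probe set that also lists a pseudogene of Ndufs5 averaged 6.15, and which of these reads the gene was not tested.

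In complex II, Sdha, the flavoprotein that oxidises succinate, averaged 9.64 ± 0.16, the iron-sulphur subunit Sdhb 7.30 ± 0.17, and the membrane anchor Sdhc 6.77 ± 0.23. In complex III, Uqcrb averaged 9.50 ± 0.20, Uqcrq 5.27 ± 0.18, the core protein Uqcrc1 8.29 ± 0.21 and the Rieske protein Uqcrfs1 5.92 ± 0.11. Of 20 neighbours by number of the Uqcrb probe set, 0 lie on the gene's chromosome 13. A further probe set that also lists Gm10767 averaged 4.91, and which of these reads Uqcrb was not tested. In complex IV, Cox5a averaged 8.21 ± 0.13 and Cox7a2l, which helps join complexes III and IV, 7.83 ± 0.09. In ATP synthase, the catalytic beta subunit Atp5b averaged 10.66 ± 0.11, the alpha subunit Atp5a1 9.83 ± 0.16, and subunit f, Atp5j2, 5.13 ± 0.18. Among assembly factors, Ndufaf7 averaged 6.82 ± 0.23 and Sdhaf2, which attaches flavin to Sdha, 7.44 ± 0.22, while Ndufaf2 at 4.72 and Sdhaf3 at 4.73 lay around background. The pseudogenes Atp5c1-ps and Uqcrh-ps1 were under background at 2.46 and 2.85. The SD over all 8 arrays was under 0.3 for each of the 93 members, with a median of 0.15 and a highest value of 0.29.

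Uqcr10, Cox6c, Ndufs6, Ndufb4 and Ndufb2 are not among the members, because their probe sets list several genes. These probe sets averaged 6.28 for Uqcr10, 6.22 and 9.30 for Cox6c, 4.99 and 7.74 for Ndufs6, 6.84 for Ndufb4 and 6.09 for Ndufb2, all above background.

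The next question was whether loss of miR-181a/b-1 changed the respiratory chain genes within a tissue. In thymus, none of the 93 members passed the test in KO against HET (limma, Benjamini-Hochberg over 22180 genes, threshold 0.05), where 0.00451% of all genes did. In spleen none passed, where again 0.00451% of all genes did. In each tissue this share was 1 gene, higher in KO. The highest difference of all genes was that of Xist, at 4.95 in thymus and 5.26 in spleen. Differences were small throughout: they ran from -0.33 to 0.33 in thymus and from -0.36 to 0.34 in spleen. In thymus the 95% confidence interval stayed within 1.5-fold for 89 of 93 members, against 85.0% of all genes, and in spleen for 87 of 93, against 87.3%. All 93 intervals stayed within 2-fold in both tissues. In these bulk arrays, fewer cells of a kind and less RNA per cell cannot be told apart.

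By complex, the medians of KO minus HET lay close to 0. In thymus they were 0.04 for complex I, 0.03 for complex II, -0.02 for complex III, 0.03 for complex IV and -0.00 for complex V, and 0.06 and 0.08 for the assembly factors of complexes I and II. In spleen they were 0.00, 0.01, 0.06, -0.03 and 0.01 for complexes I to V, and 0.09 and -0.08 for the assembly factors of I and II. Over all 93 members the median was 0.03 in thymus and 0.01 in spleen, against 0.00 over all genes in each tissue. In neither tissue did all members of a complex lie on 1 side of 0.

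**Figure D2:**
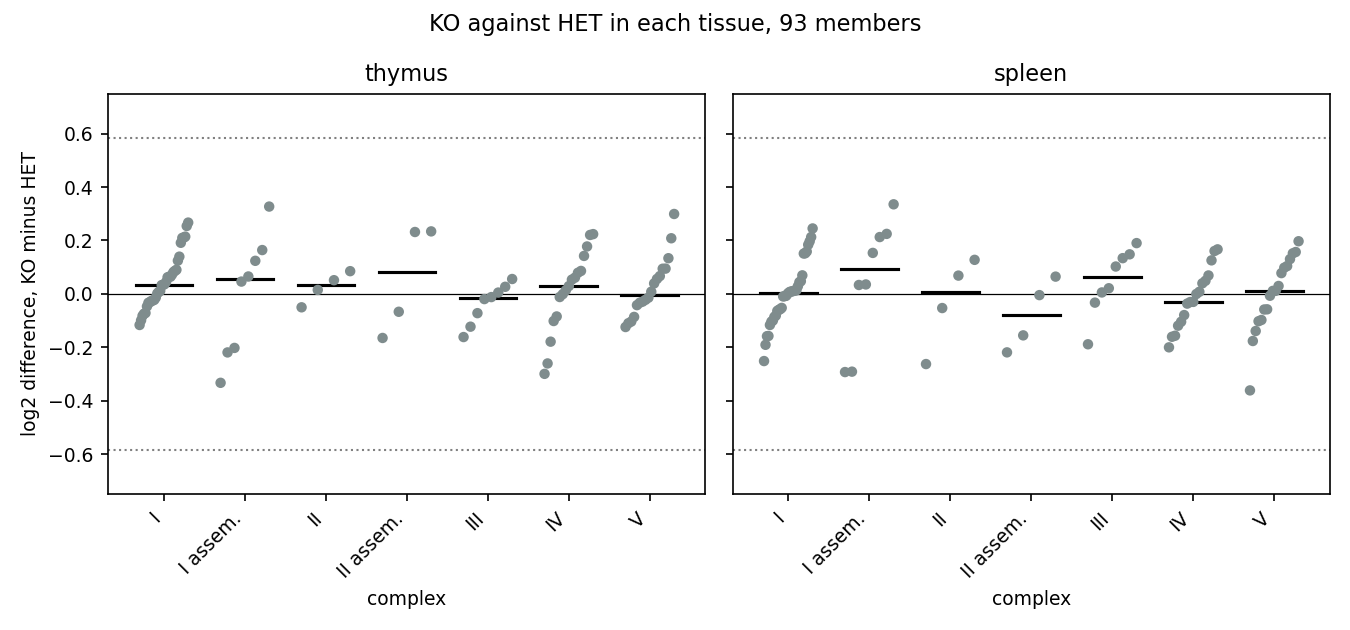
Log2 difference of KO minus HET for the 93 members by complex (I assem. and II assem. are assembly factors), thymus on the left and spleen on the right. Each point is a member, ordered by its value within a complex, black bars are medians, and dotted lines mark 1.5-fold; no point passed the adjusted threshold, and all points lie between the dotted lines.

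The members with the smallest unadjusted p-values in thymus were few. Atp5o, the subunit of the peripheral stalk that joins it to the catalytic head, read 5.88 and 5.76 in KO and 5.54 and 5.50 in HET, so KO minus HET was 0.30 (95% CI 0.02 to 0.58; limma, adjusted p = 0.894). It alone of the 93 members had an unadjusted p under 0.05 in thymus. Of all 22180 genes, 573 were higher and 652 lower in KO at that threshold, so 1 of 93 is not above that background. The spleen difference of Atp5o was of the other sign, with 5.37 and 5.59 in KO and 5.61 and 5.70 in HET. Next were Ndufb5, Ndufa4l2, Sdhaf1 and Ndufaf7 with differences of 0.25, 0.27, 0.23 and 0.33. That of Ndufaf7 rested on its HET arrays, 6.94 and 6.29, and ranged from 0.00171 to 0.652 without 1 array. Below HET were Cox6b2 at -0.30, Ndufaf1 at -0.33, Cox8c at -0.26, and Ndufaf3 and Ndufaf5, assembly factors of complex I, at -0.22 and -0.20. Of these, Ndufa4l2, Cox6b2 and Cox8c were under background in both groups, so their differences measure no transcript level.

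In spleen, 2 members had an unadjusted p under 0.05. Of all 22180 genes, 443 were higher and 445 lower in KO at that threshold, so 2 of 93 is not above that background. Ndufaf6, an assembly factor of complex I, read 5.18 and 5.40 in KO and 5.03 and 4.88 in HET, so KO minus HET was 0.34 (95% CI 0.03 to 0.64; limma, adjusted p = 1). Atp5e, the epsilon subunit of ATP synthase, read 6.80 and 7.18 in KO and 7.37 and 7.33 in HET, so KO minus HET was -0.36 (95% CI -0.67 to -0.05; adjusted p = 1). In both genes the spleen arrays of the genotypes did not overlap. With 2 arrays per group this carries little weight. It also held for every other member named in this paragraph and for further members, so it does not set these 2 apart. The share of all genes without such overlap was not counted. Next above HET were Ndufaf4 at 0.22, Ndufs1 at 0.24, Ndufa4 at 0.21 and Ndufa12, a late-added subunit of complex I, at 0.20. Below it were Ndufaf8, the partner of Ndufaf5, at -0.29, Ndufb3 at -0.25, Ndufaf1 at -0.29 and Sdhaf4, which helps join Sdha and Sdhb, at -0.22.

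Averaged over both tissues, 0.0225% of all genes passed in KO against HET and no member did. Ndufaf1, a core assembly factor of complex I, read 6.11 and 5.66 in thymus KO and 6.24 and 6.20 in thymus HET, and 6.28 and 6.00 in spleen KO and 6.56 and 6.30 in spleen HET. Its mean was thus lower in KO in both tissues, by -0.31 on average (95% CI -0.57 to -0.05; limma, adjusted p = 0.819), although the arrays of the genotypes overlapped when both tissues were pooled. Ndufaf6 at 0.25 (adjusted p = 0.833) and Atp5e at -0.23 (adjusted p = 0.868) followed. Ndufa4l2 gave 0.23 (adjusted p = 0.833) under background. Further values were 0.15 for Sdhaf1, 0.14 for Ndufaf4, 0.14 for Ndufa4, -0.14 for Sdhaf4, -0.15 for Cox8c and -0.17 for Cox5b.

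Not 1 member had all 4 KO arrays below all 4 HET arrays, where 1.06% of all genes did. The reverse held for 1 member, where 1.24% of all genes did: Ndufa4l2, with 3.79 and 3.91 in thymus KO and 3.81 and 3.86 in spleen KO, against 3.54 and 3.63 in thymus HET and 3.76 and 3.54 in spleen HET. All these values are under background. The 3 members on the X chromosome were of interest because of Xist. Cox7b differed by 0.22 in thymus and -0.20 in spleen by the probe set that is mostly among neighbours of other chromosomes, Ndufa1 by -0.03 and 0.01, and Ndufb11 by 0.01 and -0.19 (KO minus HET), none past the threshold.

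Whether the genotype difference itself differed between tissues was tested by the interaction, spleen difference minus thymus difference. Here 0% of all genes passed, and 0 of the 93 members. At an unadjusted p under 0.05 there were 3 members: Atp5o at -0.48 (95% CI -0.88 to -0.07; limma, adjusted p = 1.00), Ndufb3 at -0.46 and Cox6b2, under background, at 0.46. Of all 22180 genes, 422 were above 0 and 391 below 0 at that threshold, so 3 of 93 is not above that background. Ndufb3, an accessory subunit of the membrane arm of complex I, read 5.42 and 5.24 in thymus KO and 5.18 and 5.06 in thymus HET, and 5.39 and 5.28 in spleen KO and 5.74 and 5.43 in spleen HET. Next in order were Ndufaf5 at 0.41, Ndufa12 at 0.31, Ndufs1 at 0.33 and Ndufaf3 at 0.25, and Ndufaf8 at -0.41, Ndufb5 at -0.36 and Sdhaf3 at -0.39. The interval of this contrast is wide, and it stayed within 1.5-fold for 38 of 93 members (40.9%), against 47.9% of all genes, and within 2-fold for all 93, against 95.7%.

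The tissues differed more than the genotypes. Averaged over KO and HET, 2 members passed the test in thymus against spleen, both lower in thymus, and none was higher. Of all genes 5.43% passed in either direction and 3.17% passed as lower in thymus, so 2 of 93 is not above that background. Ndufa9, an accessory subunit beside the ubiquinone site of complex I, read 7.64 and 7.28 in thymus KO and 7.67 and 7.32 in thymus HET, against 7.89 and 8.03 in spleen KO and 7.97 and 7.93 in spleen HET. All 4 thymus arrays lay below all 4 spleen arrays, by a mean of -0.48 (95% CI -0.73 to -0.23; 0.717-fold; limma, adjusted p = 0.0307). Atp5h, subunit d in the peripheral stalk of ATP synthase, read 10.04 and 9.78 in thymus KO and 9.996 and 9.88 in thymus HET, against 10.29 and 10.69 in spleen KO and 10.28 and 10.31 in spleen HET. Again no array overlapped, and the difference was -0.47 (95% CI -0.71 to -0.23; 0.722-fold; adjusted p = 0.0303).

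Both calls rest on few arrays. Without single arrays the adjusted p of Ndufa9 ranged from 0.0175 to 0.116 and it passed in 2 of 8 cases, and that of Atp5h ranged from 0.0224 to 0.117 and it passed in 3 of 8. The chosen probe set of Atp5h also has all its 20 neighbours by number on chromosome 15, while the gene lies on chromosome 11, and what this probe set reads was not tested. Its other probe set read 4.68 and 4.98 in thymus KO and 4.88 and 4.68 in thymus HET, against 5.64 and 5.33 in spleen KO and 4.79 and 5.34 in spleen HET. That gave the same difference of -0.47 (95% CI -0.77 to -0.18), with adjusted p = 0.0677 when it replaced the chosen one, although its arrays overlapped between tissues.

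Other members that came closest in thymus against spleen were also lower in thymus. Ndufa8, an accessory subunit that faces the intermembrane space, read 7.92 and 7.61 in thymus KO and 7.71 and 7.87 in thymus HET, against 8.15 and 8.28 in spleen KO and 8.17 and 7.96 in spleen HET (-0.36, adjusted p = 0.0700). Atp5mpl, a small membrane protein of ATP synthase, read 7.36 and 6.94 in thymus KO and 7.26 and 6.91 in thymus HET, against 7.48 and 7.60 in spleen KO and 7.64 and 7.41 in spleen HET (-0.41, adjusted p = 0.0741). With the mouse pool as a fixed replicate block, which compares thymus and spleen of the same mice, Atp5mpl passed as well (adjusted p = 0.0487) and the count was 3. With the pool as a random block the count stayed at 2, without Atp5mpl. Ndufv3, an accessory subunit of the NADH-binding module, read 6.67 and 6.50 in thymus KO and 6.64 and 6.46 in thymus HET, against 6.84 and 6.89 in spleen KO and 6.78 and 6.92 in spleen HET (-0.29, adjusted p = 0.0944). In these 3 genes as well, every thymus array lay below every spleen array. Sdhaf3, which helps mature Sdhb, differed by -0.31 (adjusted p = 0.0811) at levels around background.

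**Figure D3:**
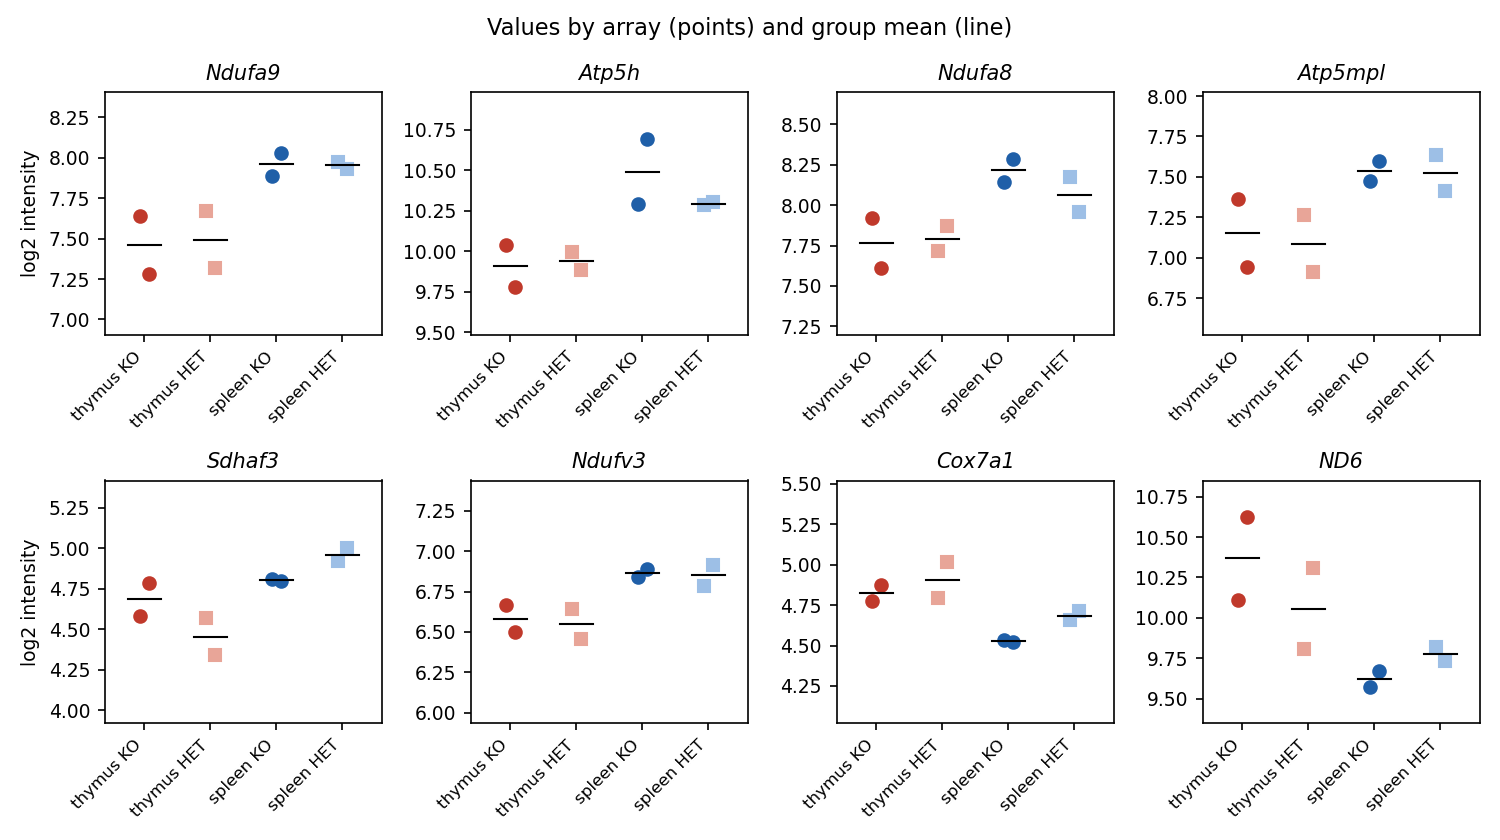
Log2 intensity by array for 7 members and for ND6 of the mitochondrial genome, with groups in the order thymus KO, thymus HET, spleen KO, spleen HET; points are arrays, lines are group means of 2 arrays, and every panel spans the same number of log2 units. In Ndufa9, Atp5h, Ndufa8, Atp5mpl, Sdhaf3 and Ndufv3 all thymus arrays lie below all spleen arrays, and Cox7a1 lies the other way.

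In all, 8 of 93 members (8.60%) had all 4 thymus arrays below all 4 spleen arrays, near the 8.29% of all genes that did: Atp5h, Atp5mpl, Cox5b, Cox6a1, Ndufa8, Ndufa9, Ndufv3 and Sdhaf3. The opposite order held for 1 member, where 6.19% of all genes had it. This was Cox7a1, with 4.77 and 4.87 in thymus KO and 4.79 and 5.02 in thymus HET, against 4.54 and 4.52 in spleen KO and 4.66 and 4.71 in spleen HET (0.26, adjusted p = 0.129), where the spleen KO arrays were under background. Next above spleen by p were Cox6b2, Cox7b, Cox8c and Ndufc2, at 0.19, 0.17, 0.14 and 0.13, of which Cox6b2 and Cox8c were under background. The chosen probe set of Cox5b, at -0.33 (adjusted p = 0.115), also sits among probe sets of another chromosome, and the gene's other probe set, under background, gave 0.19.

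As a group, more members read lower than higher in thymus, but this balance depended on the scaling. With the values as deposited, 65 of 93 (69.9%) were below 0 with a median of -0.09, against 45.7% of all genes with a median of 0.02, and 57.4% of the 12094 genes above background with a median of -0.04. With quantile normalization between arrays, 50 of 93 were below 0 and the median was -0.01, against 50.3% of all genes. By complex, the deposited medians were -0.06 for complex I (23 of 34 below 0), -0.17 for II (4 of 4), -0.13 for III (7 of 8), -0.02 for IV (9 of 17) and -0.08 for V (13 of 18). For the assembly factors of complexes I and II they were -0.13 and -0.15. After quantile normalization the medians of complexes I, IV and V turned to 0.03, 0.07 and 0.01. Those of II and III kept their sign at -0.09 and -0.09, as did those of the assembly factors at -0.05 and -0.13.

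**Figure D4:**
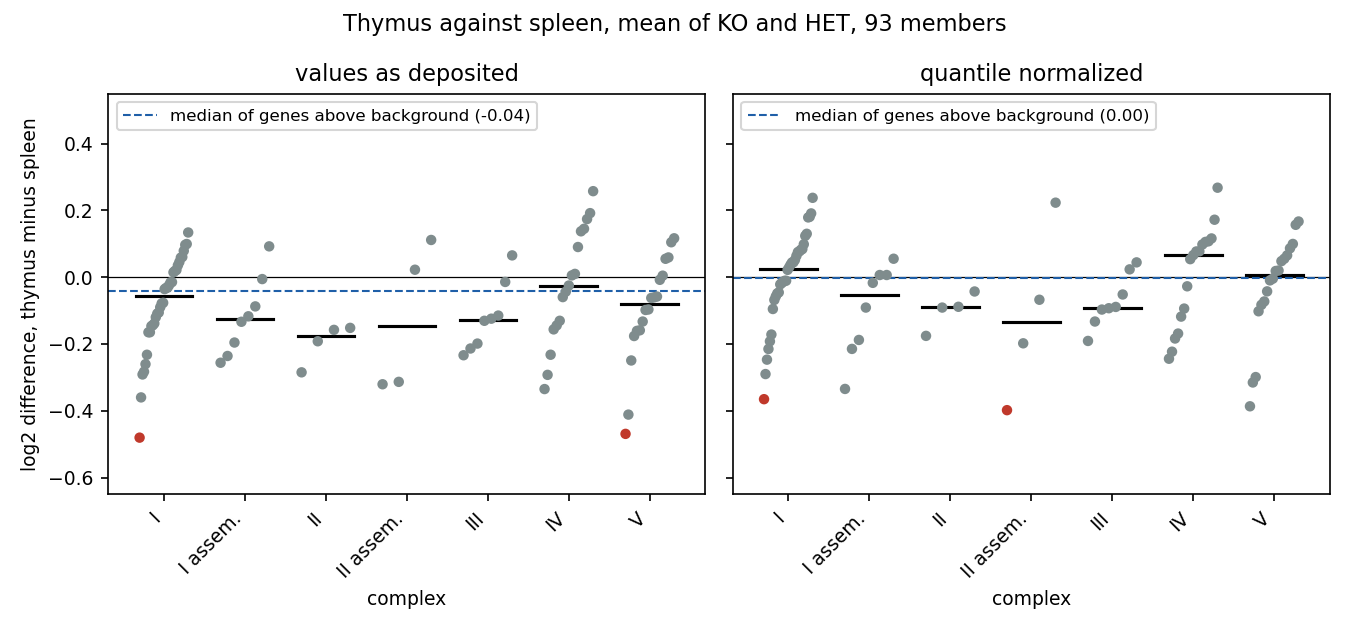
Log2 difference of thymus minus spleen, mean of KO and HET, for the 93 members by complex, with values as deposited on the left and after quantile normalization on the right. Points are members (red where the adjusted p was under 0.05), black bars are medians and the dashed line is the median of genes above background, -0.04 on the left; Ndufa9 and Atp5h are red on the left, Ndufa9 and Sdhaf3 on the right, and the medians of complexes I, IV and V lie above 0 on the right only.

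Named subunits show the size of these values. Complex II differed by -0.15 for Sdha, -0.16 for Sdhb, -0.19 for Sdhc and -0.28 for Sdhd, which anchors the complex in the membrane. Complex III gave -0.20 for Uqcrc1 and -0.11 for Uqcrfs1, and ATP synthase gave -0.18 for Atp5a1 and -0.06 for Atp5b. Further values came from Ndufs1 (-0.08), Ndufv1 (0.06), Ndufab1 (0.05), Ndufa4 (-0.11), Cox4i1 (0.01), Cox5a (0.01) and Cox7a2l (-0.04). None of these passed the threshold, and Ndufs1, Cox7a2l and Atp5b turned to 0.04, 0.07 and 0.02 under quantile normalization. Over the 93 members, 88 intervals stayed within 1.5-fold in this contrast.

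Within each genotype no member passed in thymus against spleen. In KO, 1.72% of all genes passed, and 61 of 93 members were below 0 with a median of -0.06. The leading members were Atp5h (-0.58, adjusted p = 0.0926), Ndufa9 (-0.50), Ndufa8 (-0.45), Ndufa12 (-0.32) and Sdhaf2 (-0.40) below spleen, and Atp5o (0.34), Cox7b (0.39), Cox7a1 (0.29), Ndufs5 (0.22) and Sdhaf1 (0.20) above it. Ndufs5 was under background on all 8 arrays, so its value measures no transcript level. In HET, 1.2% of all genes passed, and 68 of 93 members were below 0 with a median of -0.08. There the leading members were Sdhaf3 (-0.51, adjusted p = 0.116), Ndufb3 (-0.46), Cox6b1 (-0.40), Ndufa9 (-0.46) and Atp5mpl (-0.44), and above spleen Cox6b2 (0.42), Cox8c (0.25), Cox7a1 (0.22), Atp5j2 (0.21) and Ndufaf2 (0.14). The 2 contrasts are on separate arrays, and whether they differ is the interaction given above.

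Arrays of a group did not vary alike over the members. The thymus KO arrays lay a median of 0.20 apart over members above background, against 0.17 over all genes above background. In thymus HET the median was 0.12 against 0.17, in spleen KO 0.15 against 0.12, and in spleen HET 0.09 against 0.10. The widest pair was Ndufa1, a small subunit needed for complex I assembly, with 7.43 and 6.55 in thymus KO. On spleen KO array 2, 74 of 93 members read above their own mean over the 8 arrays, and on spleen KO array 1 this held for 46. In spleen HET it held for 62 and 57, in thymus KO for 58 and 31 and in thymus HET for 31 and 37. Without single arrays the count of members called in thymus against spleen ranged from 0 to 6: it was 6 without thymus KO array 1, 4 without thymus HET array 1, 1 without spleen KO array 1 and 0 without any of the other 5.

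Subunits encoded by the mitochondrial genome stood beside the nuclear members. Of 13, 10 had a probe set of their own. Means over the groups for the 9 other than ND6 lay between 11.90 and 13.01, and their thymus minus spleen differences between -0.17 and 0.08. ND6, the complex I subunit encoded on the opposite strand from the others, read 10.11 and 10.63 in thymus KO and 9.81 and 10.31 in thymus HET, against 9.57 and 9.67 in spleen KO and 9.82 and 9.73 in spleen HET. Its difference was 0.51 (95% CI 0.22 to 0.81; limma, adjusted p = 0.0498), although thymus HET array 1 lay at the spleen level. It passed in 2 of the 8 fits without 1 array, with adjusted p between 0.0189 and 0.171, and had adjusted p = 0.0611 under quantile normalization. In KO against HET none of the 10 passed.

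Factors that assemble the complexes read mostly lower in thymus: of 37 measured beside the members, 33 were below 0 with a median of -0.17, and under quantile normalization 29 were with a median of -0.15. As deposited 2 of the 37 passed, both lower, where 3.17% of all genes were called lower, and 1 passed under quantile normalization. Tmem126b, of the assembly complex that builds the membrane arm of complex I, read 6.46 and 6.35 in thymus KO and 6.62 and 6.19 in thymus HET, against 6.84 and 6.98 in spleen KO and 6.99 and 7.04 in spleen HET (-0.56, limma adjusted p = 0.0120). Cox14, which acts with the translation of the mitochondrial COX1 subunit, differed by -0.37 (adjusted p = 0.0372), and had adjusted p = 0.140 under quantile normalization. It did not pass in any of the 8 fits without 1 array, and Tmem126b passed in 6 of them.

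Regulators of mitochondrial gene expression were mixed, with 21 of 31 below 0 and a median of -0.04. Of the 31, 2 passed, both lower, where 3.17% of all genes were called lower. Under quantile normalization 17 were below 0, the median was -0.02 and 1 passed. Nfe2l2, the transcription factor of the oxidative stress response, differed by -0.52 (adjusted p = 0.00851) and passed without each of the 8 arrays. Gabpb2, a partner of the ETS factor GABP, differed by -0.42 (adjusted p = 0.0358). It passed in 2 of the 8 fits without 1 array and had adjusted p = 0.0753 under quantile normalization.

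Of 19 genes of the TCA cycle, 17 were below 0 with a median of -0.20 (15 and -0.09 under quantile normalization) and none passed. Of all genes 5.43% passed as deposited in either direction, and this share also stands beside the calls of the lists that follow. No such share is given for quantile normalization. Malate dehydrogenase Mdh2 gave -0.44 (adjusted p = 0.0590), Idh3b, of isocitrate dehydrogenase, -0.40 (adjusted p = 0.0678), citrate synthase Cs -0.29 and Dlat, of pyruvate dehydrogenase, -0.25. Among 24 carriers and membrane proteins, the median of -0.09 turned to 0.01 under quantile normalization. Chchd10, of the cristae, was higher in thymus by 0.59 (adjusted p = 0.00508) and passed without each of the 8 arrays, and Vdac2, a channel of the outer membrane, was lower by -0.40 (adjusted p = 0.0386, and 0.0809 under quantile normalization). Of 15 glycolysis genes, Pfkp, a phosphofructokinase, was lower by -0.61 (adjusted p = 0.00866) and the glucose transporter Slc2a3 by -0.54 (adjusted p = 0.0279), while the lactate transporter Slc16a3 was higher by 0.52 (adjusted p = 0.0376). Under quantile normalization 3 glycolysis genes were called higher and 1 lower, against 1 higher and 2 lower as deposited, and Slc2a3 had adjusted p = 0.0518. Pfkp passed without each of the 8 arrays, and Vdac2, Slc2a3 and Slc16a3 passed in 2 of those 8 fits each. None of 12 proteases and chaperones, 9 antioxidant genes and 9 further chain genes passed as deposited, although 2 of the further chain genes were called higher under quantile normalization. Their medians were -0.11, -0.19 and 0.08 (-0.01, -0.11 and 0.08 under quantile normalization). The genes of smallest p were Afg3l2, a protease of the inner membrane, at -0.30, the peroxidase Prdx3 at -0.32 and the ATP synthase inhibitor Atpif1 at 0.32. In KO against HET no gene of any of these lists passed in either tissue or averaged.

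Cell cycle genes moved with the tissue contrast: 16 of 27 passed the threshold as higher in thymus, where 2.26% of all genes did. All 27 were above 0, with a median of 0.61. Examples are Kif11 at 1.32, Plk1 at 0.85, Mki67 at 1.20 and Top2a at 1.32. In spleen KO against HET all 27 were above 0 as well, with a median of 0.19, and none passed. Markers of double-positive thymocytes also moved with the tissue, with a summed linear level of 290 to 383 in thymus KO and 278 to 305 in thymus HET, against 236 to 257 in spleen KO and 231 to 232 in spleen HET, and with 4 of 7, 4 of 7, 2 of 7 and 2 of 7 markers above background. Markers of innate-like and natural killer cells summed to 412 to 523 in thymus KO and 441 to 482 in thymus HET, against 332 to 365 in spleen KO and 331 to 361 in spleen HET, with 3 of 7, 3 of 7, 4 of 7 and 3 of 7 above background, and Klrb1c, Ncr1 and Gzma under it in every group. B cell markers moved the other way, at 1014 to 1128 and 1247 to 1425 in thymus KO and HET, against 1748 to 1786 and 2122 to 2197 in spleen KO and HET. Only 2 of their 5 were above background in each group, and Cd79a, Ms4a1 and Pax5 were not. The part of these cells and of proliferation in the values of Ndufa9, Atp5h and the other members was not tested.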

How the data were processed

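RNA of sorted Treg cells was hybridised to 8 arrays, 2 per group. The authors processed the arrays with oligo in BioConductor and deposited log2 intensities per probe set; the version of oligo and the genome build are not given in the sources used here. The table held 41345 probe sets, of which 23521 listed 1 gene symbol, 1820 several and 16004 none in the annotation used. Array medians lay between 4.58 and 4.70. For each of 22180 genes the probe set with the highest mean was kept, values were not normalized further, and limma 3.58.1 (R 4.3.3) fitted the 4 groups over all 8 arrays with 4 residual degrees of freedom and empirical Bayes moderation. P-values were two-sided and adjusted by Benjamini-Hochberg over 22180 genes at a threshold of 0.05. The procedure was run on simulated data with independent arrays. The tissue differences planted there were larger than those of any member, so detection of differences of the members' size was not tested. The number of arrays limits the precision.

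Members, gene lists and tests were chosen with earlier results of these data known. Named are members past the threshold, the 5 of smallest p in each direction per contrast, and the highest and lowest of each complex. Also named are the listed isoforms and subunits, and list genes past the threshold (otherwise up to 4 of smallest p). The names of mitochondrial genome subunits were matched to the annotation's spelling after the data were seen. Thymus and spleen of a genotype with the same number came from the same mice per the design text, and their deviations correlated at 0.02 (KO) and 0.12 (HET). Those of arrays that share only the number correlated at 0.21 (thymus KO and HET) and -0.05 (spleen KO and HET). Alternatives were quantile normalization, a filter on low values, another variance moderation, probe sets averaged per gene, fits of the compared arrays alone, replicate blocks and leaving out each array.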

Additional observations from a re-analysis of the deposited data

How the results depend on the processing

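In KO against HET and in the interaction, 0 members were called under every alternative run. In thymus against spleen within KO the count of 0 became 1 (Atp5h) with genes above the median level, with trend and robust spread, and with probe sets averaged per gene, and 0 to 1 without 1 array. Averaged over genotypes, the count of 2 became 5 with genes above the median level, and 1 with the probe set on the gene's own chromosome for Atp5h, Atp5g2 and Cox5b, an alternative chosen after seeing the data. It ranged from 0 to 6 without 1 array. With the mouse pool as a fixed replicate block it was 3, and with the replicate number as a block also 3, Atp5mpl being added in both, while with the pool as a random block it stayed at 2. With trend and robust spread it was 3, Ndufa8 being added. Under quantile normalization it was 2, with Sdhaf3 in place of Atp5h. Signs turned for Cox5b in KO against HET averaged (0.0744 with the own-chromosome probe set), and under quantile normalization for Ndufs1 (0.0372), Cox7a2l (0.0661) and Atp5b (0.0186) in thymus against spleen averaged. Without 1 array, Atp5j2 in thymus against spleen HET ranged from -0.0140 to 0.434. In the averaged contrast, Ndufv1 ranged from -5.15e-05 to 0.121, Ndufab1 from -0.00614 to 0.0970, Cox4i1 from -0.0307 to 0.0505, Cox5a from -0.103 to 0.114, Cox7a2l from -0.0944 to 0.00768 and Atp5b from -0.134 to 0.0185. The cause was not tested. Signal under background leaves Cox6b2, Cox7b2, Cox8b, Cox8c, Ndufa4l2 and Ndufs5 without a measured level. Cox4i2, Cox6a2 and Cox7a1 lay around background, with the mean of Cox4i2 above it in all 4 groups.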
